A study of Mus musculus with 4 samples.

Results

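J1 mouse embryonic stem cells treated with PJ34, an inhibitor of poly(ADP-ribose) polymerases, were compared with untreated J1 cells for DNA methylation at CpG islands. The comparison rests on 2 of the 4 arrays of the series, 1 of untreated wild type J1 cells and 1 of PJ34 treated J1 cells, chosen by their labels. The other arrays hold J1-derived clones that lack Parp-1, 210-58 and 226-47, each 1 cell line, and are used here only as levels at single regions. The sources used here give no dose, duration or vehicle for PJ34. On each array, sonicated DNA precipitated with an antibody against 5-methylcytidine (IP DNA, labelled with Cy5) was hybridised beside sonicated whole DNA of the same cells (labelled with Cy3), a method called MeDIP.

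CpG islands are stretches rich in CpG dinucleotides that lie at many promoters and are mostly free of methylation in embryonic stem cells. Exceptions include imprinted control regions and islands of germline genes. PARP enzymes attach chains of poly(ADP-ribose) to themselves, to histones and to other chromatin proteins, and Parp-1 bearing such chains has been described as an inhibitor of the maintenance DNA methyltransferase Dnmt1. PJ34 blocks PARP catalysis and is not selective for Parp-1 within the family. MeDIP reads the amount of methylated DNA and rises with CpG density as well as with methylation, so a value can be compared between samples at a region but is not a percentage of methylation.

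Each array carried 97651 probes besides control spots. Runs of at least 3 probes with neighbouring starts no more than 500 bp apart formed 14121 regions with a median of 6 probes and a median length of 664 bp. A region's level is the mean over its probes of log2(IP / whole DNA), with the median probe of each array set to 0, and a difference of 1 is a 2-fold change in the ratio. Cy5 stood well above background at 94.1% of probes on the untreated array and 91.3% on the treated one, and Cy3 at 99.7% and 99.8%. A control probe with 368 repeat spots had an SD of 0.22 on the untreated array and 0.20 on the treated array (log2). With 1 array on a side there is no replicate, no test and no p-value. SDs below are taken over the neighbouring probes of a region, which are not replicates. The untreated array and that of clone 210-58 lay on 1 slide, those of PJ34 treated cells and clone 226-47 on the other, so treatment and slide cannot be told apart. Identity as stem cells could not be checked from markers, since the arrays measure DNA. Positions are those of the deposited files, taken as mouse build mm8, which they fit and which the sources used here do not name. Genes of that build were not used here, so regions are named by position alone.

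Most islands had similar levels with and without PJ34. Across regions the difference, PJ34 treated minus untreated, had a median of -0.01 and quartiles of -0.28 and 0.26 on the log2 scale, and 10925 of 14121 regions (77.4%) lay within 0.5 of 0. The difference was 1 or more at 345 regions, 2.44% of those measured, called gains below. It was -1 or less at 177 regions, 1.25%, called losses. In the deposited scaling 26 gains and 0 losses exceeded 2 in size, and 77 gains against 13 losses exceeded 1.5. With the arrays scaled to a common spread 25 gains and 2 losses exceeded 2, and after loess 1 gain and 0 losses did. Nearer to 0 the counts were alike, with 1563 regions at 0.5 or more and 1633 at -0.5 or less, and 93 gains and 85 losses between 1 and 1.1 in size.

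Gains made up 66.1% of these 522 regions in the deposited scaling, but the split moved with the scaling of the arrays. It was 52.5% with the arrays scaled to a common spread (280 gains, 253 losses), 84.6% after loess on intensity (55 and 10) and 94.9% with normexp background correction (94 and 5). Of these settings, the one with a common spread left the smallest excess of gains.

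**Figure D1:**
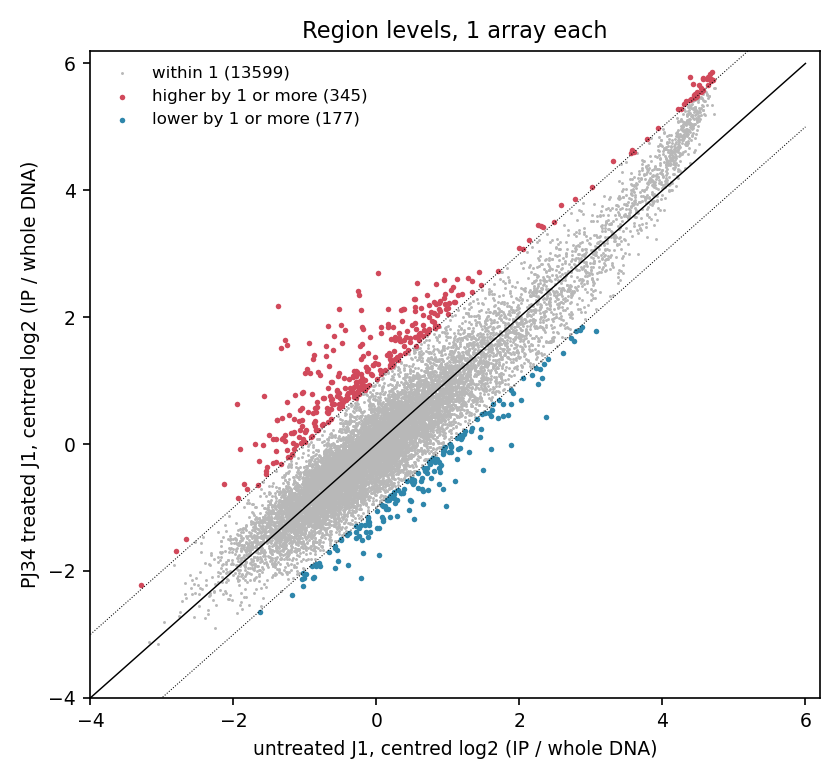
Centred log2 (IP / whole DNA) of 14121 regions on the untreated array (x axis) and the PJ34 treated array (y axis), 1 array each, with the line of equality and dotted lines 1 above and below it. The 345 gains, in red, reach farther from the line than the 177 losses, in blue, and the points above 3 bend upward from the line.

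For scale, the clones are the only group of the series with more than 1 array. They differed from each other by 1 or more, in either direction, at 337 regions (2.39%), 199 higher in 210-58 and 138 higher in 226-47, against 522 regions (3.70%) between PJ34 treated and untreated cells. The median size of the difference over all regions was 0.29 between the clones and 0.27 between PJ34 treated and untreated cells. The clone arrays also differed in spread, with interquartile ranges of the region levels of 1.48 in 210-58 and 0.999 in 226-47, against 1.37 in untreated and 1.39 in PJ34 treated cells. At 322 of 345 gains and 176 of 177 losses the PJ34 difference exceeded the difference between the clones at the same region, whereas over all regions it did so at 48.9%; the regions were picked for a large PJ34 difference, so these counts describe size and test nothing.

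The differences lay mostly in the IP channel. At the gains the median difference was 1.24 in Cy5 (IP DNA) and -0.02 in Cy3 (whole DNA), and at the losses -1.08 in Cy5 and 0.08 in Cy3, each channel centred on its array's median. The Cy3 difference ran from -0.30 to 0.36 at the gains and from -0.18 to 0.54 at the losses. In Cy5 alone, 310 of the 345 gains and 120 of the 177 losses still reached 1 in size. By numbered chromosome and X, the median Cy3 difference between the arrays ran from -0.01 to 0.07, with the highest value on chromosome X. No chromosome median of whole DNA thus shifted by near the size of the gains and losses. Such medians cannot show a change confined to part of a chromosome, and copy number was not tested.

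**Figure D2:**
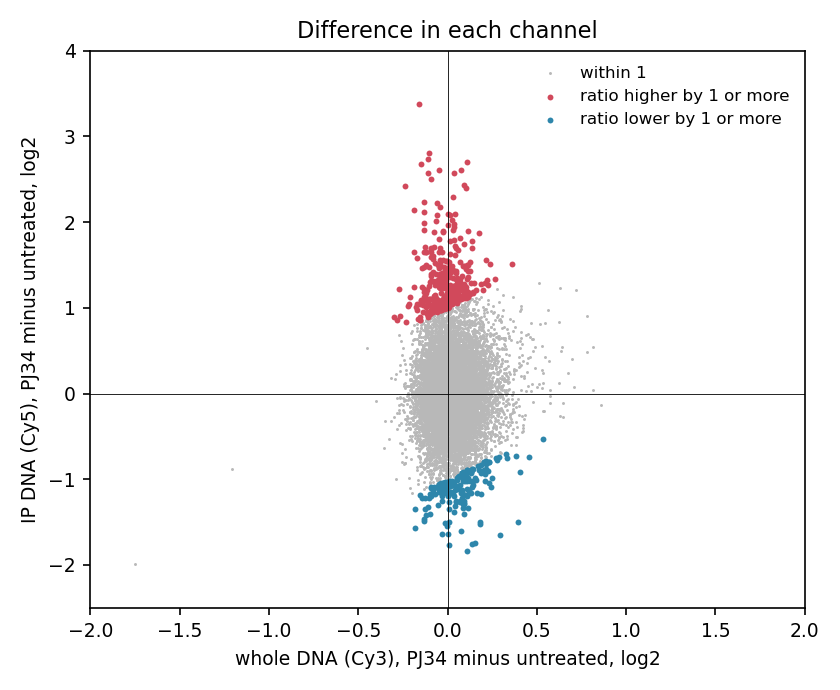
Difference between PJ34 treated and untreated cells in the IP channel (Cy5, y axis) and in the whole DNA channel (Cy3, x axis), log2, per region. Gains (red) and losses (blue) are separated along the IP axis, with medians of 1.24 and -1.08. Their medians on the whole DNA axis are -0.02 and 0.08.

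The untreated level was below 0 at 191 of the 345 gains (55.4%), near the 50.5% of all regions. The median level of the gains was -0.19 in untreated cells (quartiles -0.76 and 0.72) and 1.28 after PJ34 (0.69 and 2.12). The same regions had a median of 1.13 in clone 210-58 and 0.39 in clone 226-47. Losses ran from a median of 0.58 in untreated cells (0.01 and 1.17) to -0.63 after PJ34 (-1.21 and -0.04). They had medians of -0.03 in clone 210-58 and 0.00 in clone 226-47, near the medians of all regions on those arrays. All regions had medians of -0.01 in untreated cells, -0.05 after PJ34, -0.003 in clone 210-58 and 0.06 in clone 226-47. Differences of the clones and of PJ34 treated cells from untreated cells share the same untreated array, so the clones are given as levels and no overlap is drawn from them.

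All probes were on the same side in 328 of the 345 gains and 147 of the 177 losses, against 23.0% of all regions. A size over 3 times the error that the scanner software assigns to the spots was reached by 328 gains and 176 losses, against 26.2% of all regions. Both counts largely follow from choosing regions by the mean of the same probes and are given as a description. In 286 gains (82.9%) and 103 losses (58.2%) every probe was well above background in both channels on both arrays, against 60.0% of all regions. The losses were thus near the share of all regions, and the gains above it. Choosing gains by a high treated ratio favours bright Cy5 spots on the treated array. Gains and losses each had a median of 5 probes against 6 over all regions, and fewer probes meet this condition more easily. These shares are a description as well.

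The largest gain lay at chr10:79798479-79798816 (3 probes). Its level was -1.37 in untreated cells, 2.17 after PJ34, 1.81 in clone 210-58 and 0.11 in clone 226-47, a PJ34 difference of 3.54 (SD 0.68 over probes). Its 3 probes ran from -1.76 to -0.84 in untreated cells and from 1.25 to 3.12 after PJ34, with no overlap.

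A further 4 of the 12 largest gains also had 3 probes. chr15:79760709-79760925 went from -1.27 in untreated cells to 1.64 after PJ34, a difference of 2.91 (SD 0.17), with 1.23 in clone 210-58 and 0.02 in clone 226-47. chr7:30174206-30174511 went from -1.34 to 1.51, a difference of 2.84 (SD 0.54), with 0.99 and -0.03 in the clones. In these regions the treated array was highest, clone 210-58 next and the untreated array lowest. The order was the same at chr5:135230677-135230937, with -1.26 untreated, 1.57 after PJ34, 0.71 in 210-58 and -0.20 in 226-47. At chr7:101694600-101694862 the levels were -0.53, 2.13, 1.66 and 0.50 on the same arrays.

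Regions of more probes give a firmer mean. At chr9:55343553-55344918, with 12 probes over 1366 bp, the level was -0.68 in untreated cells, 1.86 after PJ34, 1.38 in clone 210-58 and 0.09 in clone 226-47, a difference of 2.53 (SD 0.44). Each of its 12 probes was higher after PJ34, by 1.67 to 3.13. The probes ran from -1.33 to -0.21 in untreated cells and from 1.07 to 2.44 after PJ34, so the arrays did not overlap at any point of the island. chr10:80547194-80548214 (8 probes) had -0.25 in untreated cells, 2.35 after PJ34, 2.54 in clone 210-58 and 0.94 in clone 226-47, a difference of 2.60 (SD 0.55). There clone 210-58 was the highest array, and clone 226-47 lay between PJ34 treated and untreated cells. chr14:43910846-43911604 (7 probes) went from -0.94 in untreated cells to 1.59 after PJ34 (difference 2.54, SD 0.36), with 1.12 in clone 210-58 and 0.06 in clone 226-47, and no overlap of its probes.

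Of the other 4 in the largest 12, those at chr3:88418822-88419272 and chr19:6413082-6413399 reached the highest treated levels. The former stood at 0.02 in untreated cells, 2.70 after PJ34, 2.23 in clone 210-58 and 0.95 in clone 226-47, and the latter at -0.26, 2.41, 1.87 and 0.45. chr15:74356441-74356858 had -0.49, 1.88, 1.22 and -0.06 in that order. The region at chr4:99145322-99146048 went from -1.95 to 0.64 (0.45 and -0.43 in the clones), but only 4 of its 7 probes were well above background in Cy5 on the untreated array, so its difference of 2.59 depends on dim spots. In each of the 12 the untreated array was the lowest of the 4 and clone 210-58 lay above clone 226-47. The 12 were chosen for a large PJ34 difference, which favours a low untreated level, so that order tests nothing. Clone 226-47 also had the narrower spread of region levels (interquartile range 0.999 against 1.48 in 210-58), and its part in the order of the clones was not tested.

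Among the 1110 regions of 5 or more probes that were all on 1 side and all well above background, the 6 largest gains added 3 regions to these. chr4:139516441-139516965 went from -0.88 in untreated cells to 1.41 after PJ34, with 1.02 in clone 210-58 and 0.08 in clone 226-47. chr2:105469555-105470685 went from -0.71 to 1.55 (1.22 and 0.41 in the clones), and chr7:49504359-49504971 from -0.45 to 1.81 (1.48 and 0.71). All 3 had differences between 2.25 and 2.28, with SDs over probes of 0.35 to 0.54.

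**Figure D3:**
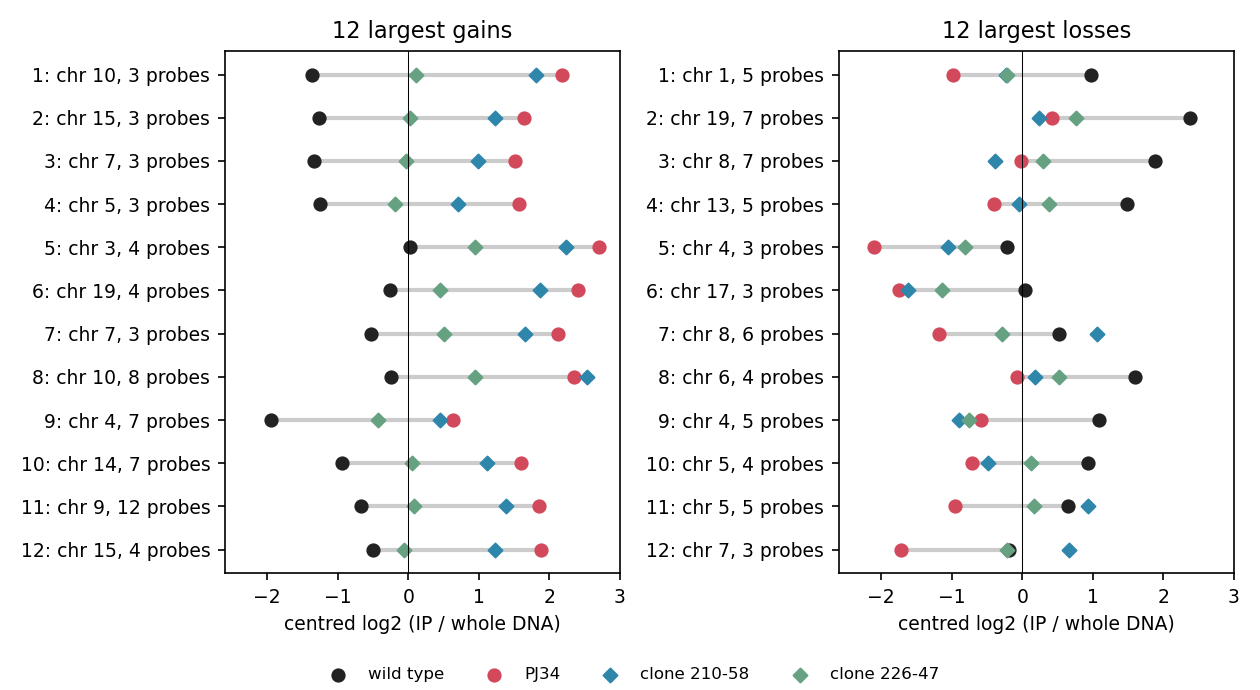
Centred log2 (IP / whole DNA) on each of the 4 arrays for the 12 largest gains (left) and 12 largest losses (right), ranked by size and marked by chromosome and number of probes, with a grey bar from the untreated to the PJ34 treated level. At the gains the untreated array (black) is lowest in all 12 regions, an order that choosing by size favours. Treated levels there run from 0.64 to 2.70. At the losses treated levels run from -2.11 to 0.43.

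The losses were smaller and fewer of them held many probes. The loss with the highest untreated level among the 12 largest was at chr19:47918611-47919310 (7 probes). It stood at 2.38 in untreated cells and 0.43 after PJ34, and at 0.24 in clone 210-58 and 0.77 in clone 226-47, a difference of -1.95 (SD 0.75). Untreated probes there ran from 1.95 to 2.60 and treated probes from -0.57 to 1.79, without overlap, and the differences of single probes ran from -2.99 in the middle to -0.73 at the first probe. Enrichment along the island was nearly even in untreated cells and uneven on the treated array. chr8:61804522-61805239 (7 probes) had 1.88 in untreated cells, -0.02 after PJ34, -0.39 in clone 210-58 and 0.29 in clone 226-47, a difference of -1.90 (SD 0.32). Its untreated probes, from 1.56 to 2.35, all lay above its treated probes, from -0.54 to 0.85.

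chr6:17980189-17980692 (4 probes) went from 1.60 to -0.07, a difference of -1.68 (SD 0.43), with 0.18 in clone 210-58 and 0.52 in clone 226-47. chr13:12574643-12575041 (5 probes) went from 1.49 to -0.41 (difference -1.89, SD 0.37, 4 of 5 treated probes well above background), with -0.05 and 0.37 in the clones. At these 4 regions, on chromosomes 19, 8, 6 and 13, the untreated array was the highest of the 4. Choosing regions by the size of the loss favours such an order.

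At 3 other losses of the 12 at least 1 clone lay near or above the untreated level. At chr8:47473889-47474475 (6 probes) the level was 0.53 in untreated cells and -1.17 after PJ34, but 1.06 in clone 210-58 and -0.29 in clone 226-47. chr5:124738590-124739106 (5 probes) had 0.65 and -0.95 without and with PJ34, and 0.94 and 0.16 in the clones. chr7:28690291-28690586 (3 probes) had -0.18 and -1.72, and 0.66 and -0.21 in the clones. In these 3 regions the treated array was the lowest of the 4, which choosing by the size of the loss also favours. The 5 remaining losses, described next, had clone levels below the untreated level.

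Several large losses rest on dim spots after PJ34. The largest, chr1:152755387-152755883 (5 probes), went from 0.97 to -0.98 with 3 of 5 probes well above background in Cy5 on the treated array (difference -1.95, SD 0.95). chr4:129610050-129610331 and chr17:15100959-15101181 had 1 of 3 probes above it. Their treated levels of -2.11 and -1.74 are therefore uncertain. Clones 210-58 and 226-47 stood at -0.23 and -0.21 in the region on chromosome 1, at -1.05 and -0.81 in that on chromosome 4 and at -1.62 and -1.14 in that on chromosome 17. The remaining losses of the 12, at chr4:48145833-48146539 and chr5:53337432-53337740, had differences of -1.67 and -1.64, each with 1 treated probe not well above background. At the former the clones stood at -0.90 and -0.75, below the treated level of -0.58, and at the latter at -0.48 and 0.13, above the treated level of -0.71. Of the losses with 5 or more probes and no dim spot, the next were at chr7:63323798-63324420 (0.87 to -0.63, SD 0.26), chr3:19886134-19886779 (1.12 to -0.23, SD 0.18) and chr9:15459886-15460520 (1.45 to 0.11, SD 0.73).

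**Figure D4:**
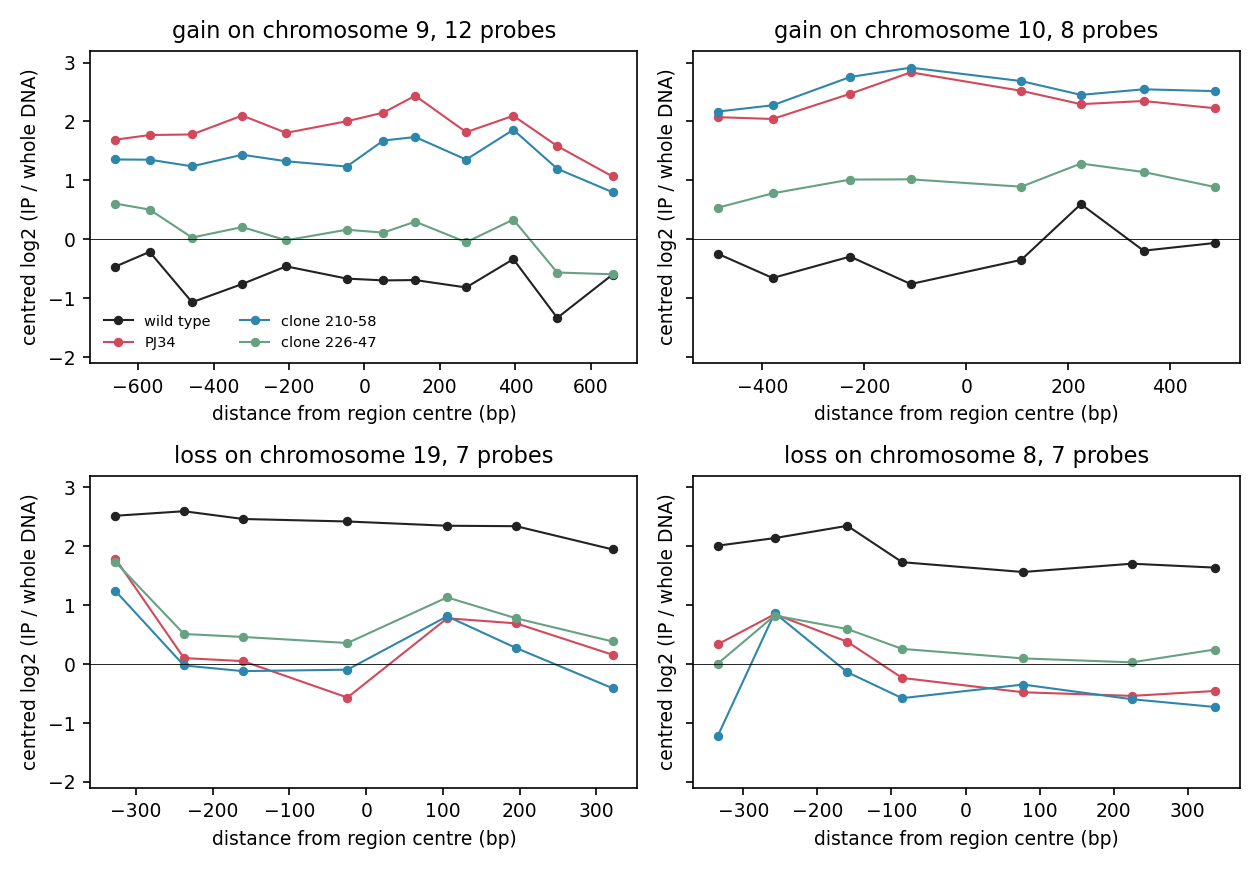
Centred log2 (IP / whole DNA) of each probe against its distance in bp from the region centre, on the 4 arrays, for gains on chromosomes 9 (12 probes) and 10 (8 probes) and losses on chromosomes 19 and 8 (7 probes each). Lines of PJ34 treated cells (red) and untreated cells (black) do not cross in any of the 4 regions, and the treated line of the chromosome 19 loss dips to -0.57 near its middle.

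Moves from a low to a high level were more frequent than the reverse in the deposited scaling. They were not counted under the other settings, under which the split of gains and losses moved. Below 0 in untreated cells and at 1.5 or above after PJ34 were 20 regions, against 2 in the opposite sense (the losses on chromosomes 8 and 6 above). Below 1 and then at 2 or above were 35 regions, against 3. The counts of highly enriched islands were nevertheless close, with 1404 regions at 2 or above in untreated cells, 1383 after PJ34 and 1216 in both. At the bottom of the range, 1814 regions were below -1 in untreated cells, and 35 of them stood at 0 or above after PJ34.

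Islands that were highly enriched in untreated cells kept a high level. Of 800 regions at 3 or above in untreated cells, 727 were also at 3 or above after PJ34. Losses of 1 or more from an untreated level of at least 2.5 numbered 7, the largest at chr12:103726015-103726832 (8 probes), from 3.08 to 1.78 (1.86 in clone 210-58 and 1.56 in clone 226-47). The 3 regions with the highest untreated levels, 4.72 to 4.74, stood at 5.21 to 5.62 after PJ34.

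Grouped by the mean of the 2 arrays, the 787 regions at 3 or above had a median difference of 0.42 (quartiles 0.12 and 0.66), 39 gains and 0 losses. In the other 5 classes the median ran from -0.09 to -0.02. This upward shift of the most enriched class held under some settings and not under others. Its median was 0.38 with normexp, 0.45 with Cy5 alone and 0.42 after subtraction of surface blocks, but 0.05 after loess on intensity, -0.07 after quantile normalization of the 4 arrays and -0.09 with the arrays scaled to a common spread. Outside that class gains were most frequent at a mean level between 1 and 2, with 76 of 1421 regions (5.35%), and between 0 and 1, with 136 of 4124 (3.30%). Losses made up 1.25% to 1.62% of each class below 3. A gain itself raises the mean of the 2 arrays, and grouping by the untreated level gave another pattern. Below 3, gains were then most frequent under -1 (60 of 1814, 3.31%) and least frequent between 1 and 2 (17 of 1388, 1.22%). Losses ran from 0.331% under -1 to 2.74% between 1 and 2. A low untreated level favours a gain in that grouping, so both patterns are a description.

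Both kinds of difference were more frequent in short regions. Regions of 3 probes held gains at 4.62% and losses at 1.83%, and their differences had an SD of 0.57. At 10 or more probes the SD over regions was 0.36, and 44 regions were gains (1.86%) while 4 were losses (0.169%). The losses fell off more steeply with size than the gains.

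**Figure D5:**
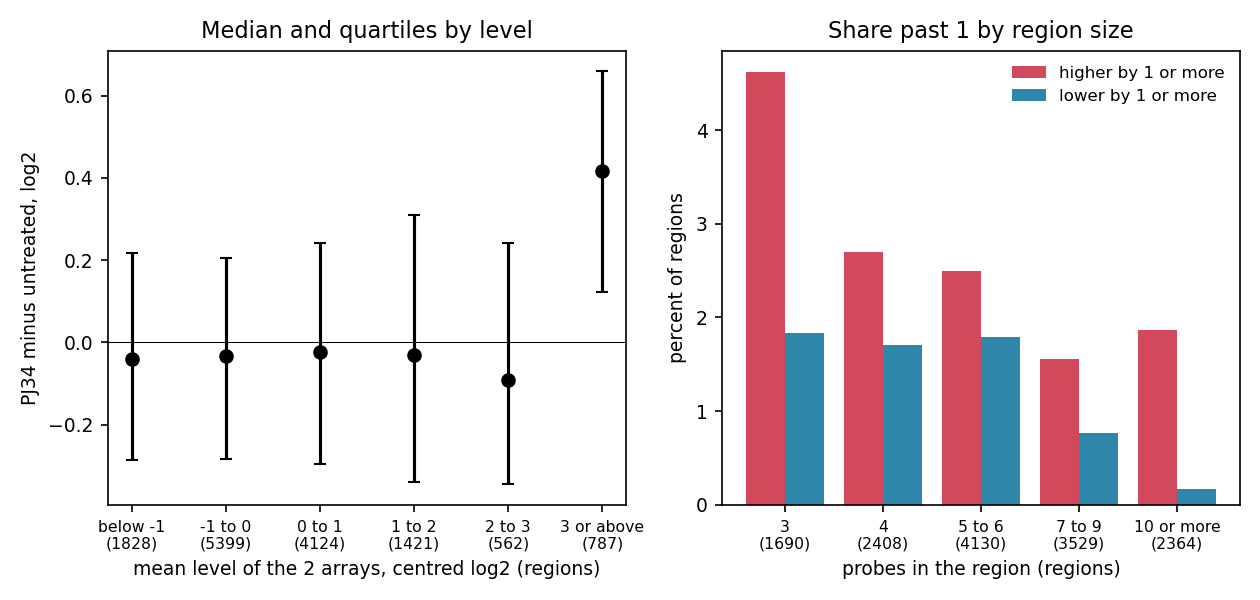
Left, median (point) and quartiles (bars) of the difference between PJ34 treated and untreated cells, log2, in classes of the mean level of the 2 arrays. The class at 3 or above, with a median of 0.42, lies farthest from 0, though its median was 0.05 after loess. Right, percent of regions with a gain (red) or a loss (blue) of 1 or more by number of probes, at 4.62% and 1.83% with 3 probes against 1.86% and 0.169% with 10 or more.

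The 44 gains of 10 or more probes were led by the region on chromosome 9 described above. At chr8:12430349-12431409 (10 probes) the level was -0.79 in untreated cells, 1.09 after PJ34, 1.18 in clone 210-58 and 0.28 in clone 226-47 (SD of the difference 0.62). chr9:57996138-57998037 (16 probes) had -0.52, 1.12, 1.34 and 0.18 on the same arrays (SD 0.54). Unlike these, chr2:29667260-29668534 (11 probes) was already enriched in untreated cells, at 1.12, and stood at 2.61 after PJ34, 2.14 in clone 210-58 and 1.20 in clone 226-47. The 4 losses of that size were at chr11:69736675-69738056 (0.87 to -0.38), chr5:140043780-140044766 (1.88 to 0.63), chr19:41259290-41260490 (0.81 to -0.43) and chr8:127117213-127118628 (0.84 to -0.24). At the first of these the clones stood at 1.0002 and 0.56, nearer to the untreated level.

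A long island at chr2:173941465-173943988 (22 probes) lay just inside the threshold. Its level was 3.60 in untreated cells and 4.61 after PJ34, but 0.02 in clone 210-58 and -0.09 in clone 226-47, so both J1 arrays stood above both clones. It belongs to the class at 3 or above, and its difference of 1.003 was 0.46 after loess, 0.62 after quantile normalization and 0.51 with a common spread. The other regions nearest to the threshold on the gain side were chr4:128087821-128088397 and chr2:73081711-73082096 inside it, at 1.0001 and 1.002, and regions with differences of 0.995 to 0.9998 just outside. On the loss side the nearest values were -1.001 inside and -0.9999 to -0.998 outside.

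Neighbouring regions were often higher together. Regions were split wherever probe starts lay more than 500 bp apart, so a pair may be parts of 1 island. Of 665 pairs of regions within 2000 bp of each other, 84 included a gain, and in 12 both members were gains. The partners of gains were above 0 in 82 of 96 cases (85.4%), with a median difference of 0.47. Over all regions, with or without such a neighbour, 48.8% were above 0 and the median was -0.01. The 96 partners include both members of the 12 pairs, which are gains themselves. The largest such pair was chr7:49503392-49503677 (-0.61 to 1.48) and chr7:49504359-49504971 (-0.45 to 1.81), 682 bp apart. The 11 pairs with a loss held no second loss, and their partners had a median of -0.21, with 7 of 11 below 0.

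At a larger scale 23 of the 2027 windows of 1 Mb that held a region held 3 or more gains, and 2 held 3 or more losses. On chromosome 2 between 105 and 106 Mb, 3 of 8 regions were gains and lay within 105469555 to 105483309: the 7-probe region above, chr2:105473298-105473669 from 0.54 to 2.29 (difference 1.75, SD 0.37) and chr2:105482349-105483309 from -0.09 to 1.69 (1.78, SD 0.20). Between the last pair, the 17-probe region at chr2:105475465-105477624 differed by 0.17, so the gains flanked an island with little difference. On chromosome 4 between 139 and 140 Mb, 4 of 11 regions were gains, from 1.24 to 2.28, and on chromosome 8 between 90 and 91 Mb 3 of 9 were, with 8 of 9 above 0 and a median of 0.76. On chromosome 9 between 62 and 63 Mb, 3 of 9 regions were gains as well, with a median of 0.24. These 4 windows were chosen for their share of gains.

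Gains and losses were spread over the genome. On the numbered chromosomes and X, gains made up from 0.706% of regions (chromosome 16) to 3.58% (chromosome 8), and losses from 0.32% (chromosome 15) to 2.22% (chromosome 8). The median difference per chromosome ran from -0.09 to 0.05.

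Some technical measures moved with the differences. With regions grouped by their Cy3 signal on the untreated array, the median difference ran from -0.40 in the 58 dimmest regions (below -2 on the centred log2 scale) to 0.33 in the 21 brightest (2 or above). The median Cy3 difference was 0.35 in the dimmest class and -0.08 in the brightest. The losses had a median untreated Cy3 level of -0.35 against 0.04 at the gains and 0.01 over all regions. Untreated Cy3 is the denominator of the untreated ratio, so a low value favours a low difference and these values are a description. Over 64 blocks of the array surface the median difference ran from -0.38 to 0.30. Subtracting the block medians left 355 gains and 174 losses, of which 315 and 144 were the same regions as before. The part of Cy3 brightness in the differences was not tested.

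A group of 29 gains and 3 losses kept a size of 1 or more under the deposited scaling and all 8 other settings applied to the same regions. Of the 29 gains 12 had only 3 probes and 1 had 10 or more. Among all 345 gains 78 had 3 probes, and among the 14121 regions 1690 did. Normexp alone left 5 of the 177 losses, which limits the number of losses in this group. The 29 gains lay on 14 chromosomes, 5 of them on chromosome 7, which held 1031 of the 14121 regions and 35 of the 345 gains. Their differences ran from 1.78 to 3.54 with a median of 2.26. Untreated levels ran from -1.37 to 0.57, with 25 of 29 below 0, against 55.4% of the 345 gains and 50.5% of all regions. Passing every setting favours large gains, and a large gain favours a low untreated level, so that share tests nothing. After PJ34 the levels of the 29 gains ran from 0.80 to 2.70. In clone 210-58 they ran from 0.49 to 2.54 (median 1.38) and in clone 226-47 from -0.33 to 1.21 (median 0.31). None had an untreated level of 3 or above. Loess, quantile normalization and a common spread were among the settings required. They brought the median difference of regions at a mean of 3 or above to 0.05, -0.07 and -0.09. The choice of settings thus favoured the absence of such regions. Those not yet named include chr11:100529893-100530474 (7 probes, -0.89 to 1.34), chr7:107000304-107001463 (7 probes, -0.998 to 1.12), chr14:50931020-50931703 (7 probes, 0.06 to 1.84) and chr6:30125677-30126296 (6 probes, -1.04 to 0.80). The 3 losses were those at chr19:47918611-47919310, chr8:61804522-61805239 and chr6:17980189-17980692.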

How the data were processed

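Per the labels, each of the 4 arrays held IP DNA in Cy5 and whole DNA in Cy3, with no dye swap. Agilent Feature Extraction 10.7.3.1, per the file headers, (9.1 per the submitters' processing notes) produced the deposited intensity values, which its headers describe as background-subtracted, spatially detrended and linearly dye-normalized. The deposited value table holds the linear ratio of the same processed signals. The error of each deposited log10 ratio gave the scanner error.

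Left out were 5950 control spots, 442 probes without a position, 30 outlier-flagged probes and 1522 probes in runs of fewer than 3. Log2 ratios were centred per array with no loess or quantile step and averaged over regions, leaving 95657 probes. The number of arrays, 1 a side, limits the precision, so no test was run and a fixed size of 1 was used. Named were the 12 largest gains and losses in which 75% or more of the probes shared the sign of the mean, the 6 largest in each direction of at least 5 probes, all on 1 side and above background, the 3 highest untreated levels, and the regions nearest to 1. Regions named for a window, a pair, a transition, their length or the 9 settings together were chosen after their values were seen. The members and lists were chosen with earlier results of these data known. Gene lists and cell type markers were not used, because the gene table at hand was for another build (GRCm38), and no sequence is printed for that reason. Alternatives were run with limma 3.58.1 (R 4.3.3) and pandas 2.3.3. Normexp (offset 50) used raw median intensity, since the files used here hold no raw mean.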

Additional observations from a re-analysis of the deposited data

How the results depend on the processing

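The counts of gains and losses, 345 and 177, moved by over 1.5 times under 5 of the 13 alternatives. They were 94 and 5 with normexp, 55 and 10 with loess on intensity, 202 and 105 in regions of 5 or more probes, 1563 and 1633 at a size of 0.5, and 77 and 13 at a size of 1.5. The size thresholds and the probe minimum change the counts by construction; for normexp and loess the cause was not tested. Under the other 8 alternatives gains ran from 245 to 378 and losses from 125 to 253. The share of gains among both was 48.9% at a size of 0.5 and 85.6% at 1.5. All 30 named gains and losses kept their direction in each alternative that gave them a value. Of the 15 gains 14 stayed past 1 throughout, the exception being chr4:99145322-99146048 at 0.90 with normexp. Of the 15 losses 3 did. These gains began at 2.25 to 3.54 and these losses at -1.34 to -1.95, so the gains lay farther from the cut of 1. The counts therefore do not compare the stability of gains and losses. Subtraction of surface blocks and the count over all settings together were chosen after seeing the data. No paired analysis was possible because each side has 1 array. With only probes above background in both channels, 325 gains and 125 losses were left.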

Other observations

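Off the placed chromosomes the arrays measured 6 regions. A 14-probe region of Un_random (1263085 to 1264829) stood at 4.38 in untreated cells, 5.79 after PJ34, 5.36 in clone 210-58 and 4.83 in clone 226-47, and a 15-probe region of 1_random (91456 to 93386) at 4.57, 5.56, 5.22 and 4.74. Both lay in the class at 3 or above, whose median difference was near 0 after loess. The other 4 had differences from -0.08 to 0.98.

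On chromosome X, 6 of 390 regions were gains and 3 were losses, and the median difference was 0.05.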
